A study of Brassica rapa subsp. pekinensis with 2 samples.

Results

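miR393 is a microRNA family conserved among plants, and its small RNAs were followed here in Chinese cabbage (Brassica rapa ssp. pekinensis). Every entry of the deposited miRNA table named miR393 or MIR393 was taken, whatever its species prefix, arm or suffix. This rule gave 14 names, which hold 11 distinct sequences of the 1152 in the table, and each sequence was counted once. Small RNA was sequenced from 1 library named ‘Ant’ and 1 library named ‘Mix’. ‘Ant’ held anthers pooled over developmental stages, and ‘Mix’ held the root, stem and leaf of whole seedlings at the stage of 4 true leaves. Both came from the double haploid line ‘FT’, and vernalization for 20 days at 4 °C is given by the sample labels for both samples and by the methods for ‘Ant’ alone. No group has a replicate, so every test below compares 2 libraries and not 2 conditions. Tissue, age and plant cannot be told apart, nor can vernalization if the methods are right. In such bulk samples, fewer cells of a type and less RNA per cell cannot be told apart either.

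In Arabidopsis, the 5p strand of miR393 pairs with mRNAs of the TIR1/AFB F-box proteins, the receptors that bind auxin and mark the Aux/IAA repressors for degradation. This strand has 22 nt, a length that in Arabidopsis is linked to the production of secondary siRNAs from the cleaved target. The 3p strand of the miR393b hairpin is known there as a guide of its own, which is bound by AGO2 and acts on MEMB12, a membrane fusion protein of the Golgi. In Arabidopsis, AGO1 favours small RNAs that start with U and AGO2 those that start with A.

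The listed sequences fall into a 5p and a 3p set, and they are shown because the comparison turns on single bases. They are written as DNA, 5′ to 3′, with the bases 2 to 8 (the seed) in capitals. The name of an entry gives its difference from the closest miRBase sequence: 1ss22CT stands for 1 substitution, C to T, at position 22, and R+4 for 4 bases added at the right end. The 5p set has 5 sequences, of which 4 share the seed CCAAAGG and start with T.
ath-miR393a-5p: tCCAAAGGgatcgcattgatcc
ath-miR393a-5p_1ss22CT: tCCAAAGGgatcgcattgatct
ghr-miR393_1ss21CT: tCCAAAGGgatcgcattgattt
ptc-miR393a-5p_R+4: tCCAAAGGgatcgcattgatcccca
ath-MIR393b-p5: gAAAGGATccaaagggatcgc
The 3p set has 6 sequences, and 5 of these start with A.
ath-miR393b-3p_1ss16TC: aTCATGCGatctcttcggatt
bna-MIR393-p3: aTCATGCGatctcttcgga
ath-miR393b-3p_1ss14TA: aTCATGCGatctcattggatt
ptc-miR393a-3p_1ss17GC: aTCATGCTatccctttcgatt
ptc-miR393a-3p_1ss18GA: aTCATGCTatccctttgaatt
ath-MIR393a-p3: cTTGGTTTtggatcatgctatc
A second name stands on the sequence of ath-miR393a-5p (bna-miR393_R+1), of ath-miR393a-5p_1ss22CT (aly-miR393a-5p_1ss22CT) and of ptc-miR393a-5p_R+4 (gma-miR393a_R+4). The seed TCATGCG was shared by 3 of the 3p sequences and the seed TCATGCT by 2. Outside the family, the table holds 1 sequence with any of these seeds, cas-miR167c_L-2R+1, which carries TCATGCT and had 862.58 normalized reads in ‘Mix’ and 10.83 in ‘Ant’.

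The table places the sequences on 4 hairpins, 2 of them on chromosome A04. Positions follow the table, and the build they refer to is not given in the sources used here, since the methods name a build for the mRNA libraries only. The hairpins are shown because all 4 hold the same 22-nt 5p sequence, so that its reads do not tell them apart. Each hairpin has a 21-nt 3p sequence of its own. Capitals mark the 5p sequence and the 21-nt 3p sequence.
A07 plus-strand hairpin, A07:17939303-17939446: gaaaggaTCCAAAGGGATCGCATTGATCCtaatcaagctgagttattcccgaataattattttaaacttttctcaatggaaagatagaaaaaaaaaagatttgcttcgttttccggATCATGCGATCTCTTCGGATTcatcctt
A04 minus-strand hairpin, A04:2727187-2727345: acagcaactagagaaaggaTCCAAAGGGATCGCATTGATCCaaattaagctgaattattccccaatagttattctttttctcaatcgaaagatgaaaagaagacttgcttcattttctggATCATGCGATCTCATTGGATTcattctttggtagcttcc
A04 plus-strand hairpin, A04:19695116-19695268: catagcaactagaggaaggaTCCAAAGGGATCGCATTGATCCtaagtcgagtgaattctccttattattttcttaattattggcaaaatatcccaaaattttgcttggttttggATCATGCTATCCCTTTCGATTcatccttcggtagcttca
A05 minus-strand hairpin, A05:3126398-3126556: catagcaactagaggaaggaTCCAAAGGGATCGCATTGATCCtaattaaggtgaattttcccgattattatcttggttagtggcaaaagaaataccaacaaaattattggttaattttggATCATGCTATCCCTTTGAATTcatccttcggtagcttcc
From the first base of 5p to the last base of 3p, the A07 and A04 minus-strand hairpins were 83.8% identical and the A04 plus-strand and A05 hairpins 80.3%, while the other 4 pairs were 69.0% to 75.4% identical. In the deposited folds, the 5p strand has 17 or 18 bases paired with the 3p strand, and each strand ends in a 3′ overhang of 2 nt in all 4 hairpins. Position 17 of 5p is unpaired in all 4. Position 12 is unpaired in the A04 plus-strand and A05 hairpins only among these 4. Their 3p strands differ from those of the other 2 hairpins at positions 8 and 12, counted from the 5′ end. Against ath-miR393b-3p, the 3p sequence of A07 has T16C and that of the A04 minus strand T14A, while the A04 plus-strand form has G8T, T12C and G17C and the A05 form G8T, T12C and G18A. The stretch between 5p and 3p had 87 nt in A07, 79 nt in the A04 minus-strand hairpin, 72 nt in the A04 plus-strand hairpin and 78 nt in A05. The folding energy listed by the authors was -44.5 for A07, -66.0 for the A04 minus-strand hairpin, -56.7 for the A04 plus-strand hairpin and -52.6 for A05, in kcal/mol. In the same order, these precursors were cut at unlike lengths of 144, 159, 153 and 159 nt. The authors' score of energy by length and GC was 0.9, 1.1, 1.0 and 0.9.

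**Figure D1:**
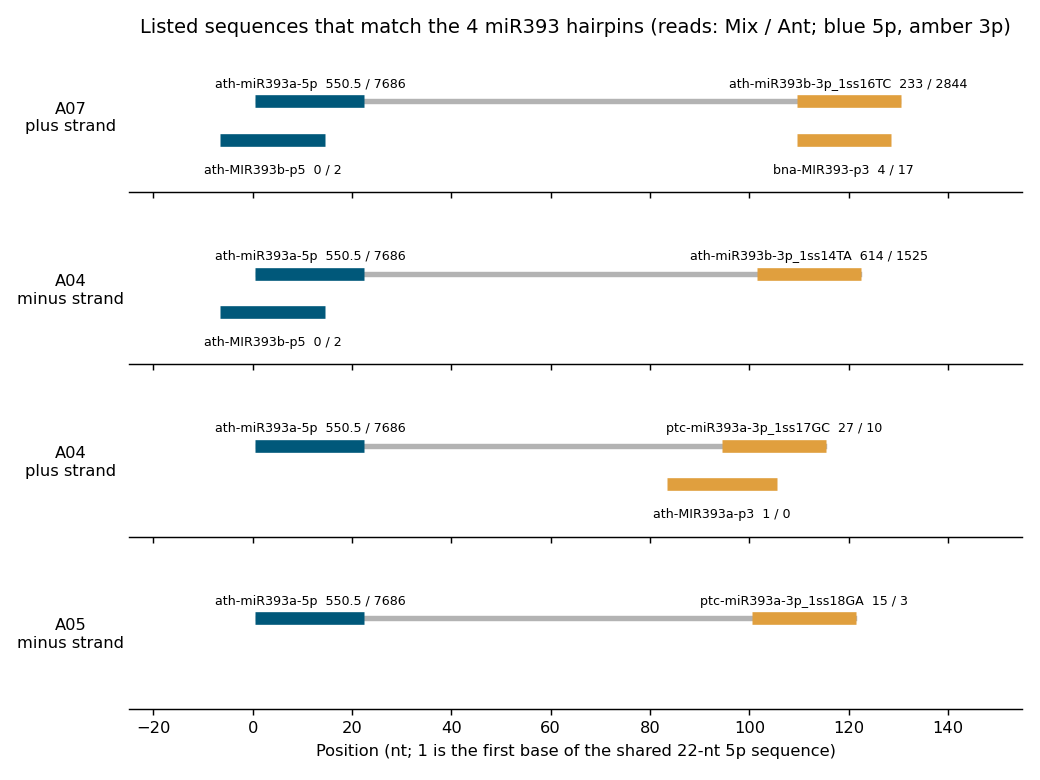
Listed sequences that match each of the 4 hairpins, drawn to scale along the hairpin in nt, with the reads in ‘Mix’ and ‘Ant’ after each name. Blue bars are 5p and amber bars 3p sequences. The same 5p bar, with 550.5 and 7686 reads, lies on all 4 hairpins, while each hairpin has a 21-nt 3p bar of its own.

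Reads on all listed miRNAs, each sequence counted once, came to 1393755 in ‘Mix’ and 1346716 in ‘Ant’. The authors multiplied the reads of a library by 1 factor, 1.0160 for ‘Mix’ and 0.9843 for ‘Ant’, to give normalized reads. For a sequence listed at 0, the upper limit was taken as 3 reads, equal to 0.000215% of the ‘Mix’ and 0.000223% of the ‘Ant’ reads. All intervals are given at 95% and hold counting error alone, because each group has 1 library. No molecular identifiers were read, so reads are not counts of molecules. miR845, a family that is enriched in Arabidopsis pollen, had 96.52 normalized reads in ‘Mix’ and 11037.39 in ‘Ant’ over its 3 sequences, and all 3 were called higher in ‘Ant’ by the tests described next, beside 27.3% of all 1152 sequences. Most of these reads were of ath-miR845a, with 96.52 normalized reads in ‘Mix’ and 10379.91 in ‘Ant’, and the other miR845 sequences were listed at 0 in ‘Mix’. The part of pollen in the miR393 values was not tested.

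The summed reads of the miR393 family were 8.14-fold higher in ‘Ant’. Its 11 sequences summed to 1494.20 normalized reads in ‘Mix’ and 12168.45 in ‘Ant’, a log2 ratio of 3.03 (Clopper-Pearson interval 2.95 to 3.10). Much of this ratio rested on ath-miR393a-5p and ath-miR393b-3p_1ss16TC, the most read sequence of each arm, without which the log2 ratio was 1.37 for the family, 3.36 for 5p and 1.19 for 3p. The family held 0.106% of the miRNA reads in ‘Mix’ and 0.918% in ‘Ant’. Both arms were higher, the 5p arm 13.4-fold, from 585.90 to 7838.74 normalized reads (log2 3.74, interval 3.62 to 3.87), and the 3p arm 4.77-fold, from 908.30 to 4329.71 (log2 2.25, interval 2.15 to 2.36). Each sequence was set against the other miRNA reads by 2 tests, Pearson's chi-square and Fisher's exact (two-sided), and a call needed p of 0.05 or less in both together with a change of more than 2-fold. Of the 11 sequences, 6 were called higher in ‘Ant’, beside 27.3% of all 1152 sequences. The number called lower was 2 of 11, beside 19.3% of all. The other 3 were not called, and each had fewer than 10 reads in both libraries. After raising values below 3 reads to that floor, the log2 ratio had a median of 1.27 over the 11 sequences and -0.01 over all sequences. With edgeR's exact test and a biological coefficient of variation assumed to be 0.4, as replicates to estimate it are lacking, 4 of the 11 were called higher and 0 lower, beside 17.0% and 12.5% of all sequences.

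**Figure D2:**
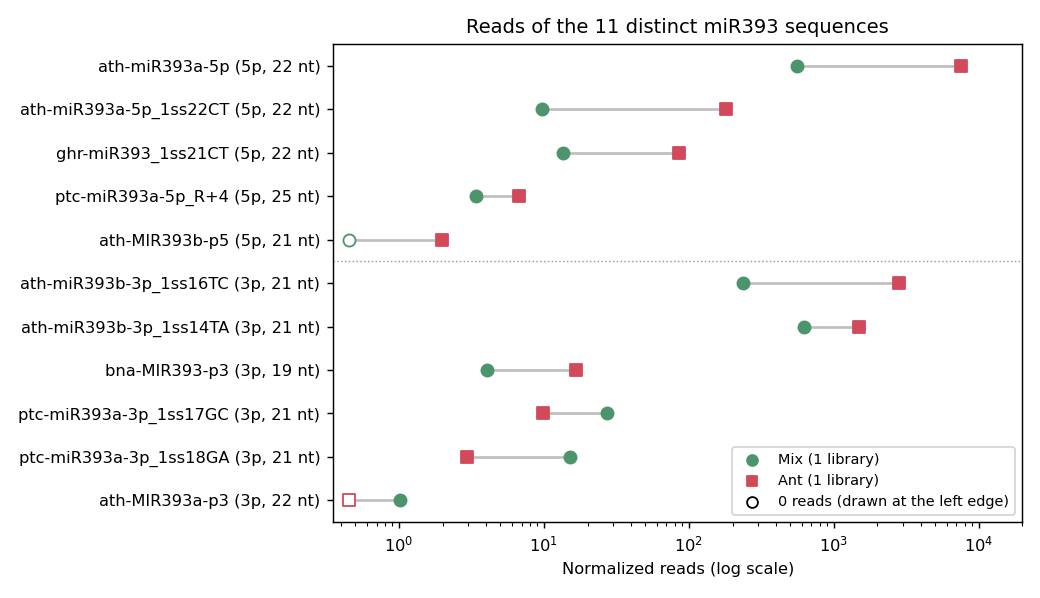
Normalized reads of each of the 11 distinct sequences, on a log scale, with circles for the ‘Mix’ library, squares for the ‘Ant’ library and open symbols for 0 reads. The square lies right of the circle for all 5 sequences of 5p and for 3 of the 6 of 3p. The 3 sequences at the bottom lie the other way.

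The member with most reads over both libraries was ath-miR393a-5p, the 22-nt guide strand that in Arabidopsis acts on the auxin receptor mRNAs. It had 550.5 reads in ‘Mix’ and 7686 in ‘Ant’. Its log2 ratio was 3.76 (interval 3.63 to 3.88), and its call held with the assumed variation (edgeR exact p = 5.28e-05). It took 0.0395% of the miRNA reads of ‘Mix’ (Wilson interval 0.0364% to 0.0430%) and 0.571% of those of ‘Ant’ (0.558% to 0.584%). By reads it stood at place 108 in ‘Mix’ and place 31 in ‘Ant’ among all 1152 sequences. Among the 141 sequences of 22 nt it stood at place 13 in ‘Mix’ and place 5 in ‘Ant’, and miR393 sequences held 0.363% of the 22-nt reads in ‘Mix’ and 3.41% in ‘Ant’. The anther library thus held more of this strand in reads, in share and in rank, but its reads cannot be assigned to a hairpin, because all 4 hairpins match it in full.

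The other 3 members with the seed of the guide strand differ from it at the 3′ end. ath-miR393a-5p_1ss22CT (C22T) had 9.5 reads in ‘Mix’ and 182 in ‘Ant’ (log2 4.21, interval 3.23 to 5.22; edgeR exact p = 5.21e-05 at the assumed coefficient). The table places it on the A04 minus-strand and A05 hairpins, but both hold the sequence of ath-miR393a-5p in full, and none of the 4 hairpins holds the final T. ghr-miR393_1ss21CT, with C21T and C22T, had 13.33 reads in ‘Mix’ and 87.33 in ‘Ant’ (log2 2.67, interval 1.85 to 3.66; edgeR exact p = 0.00567 at the assumed coefficient). It matches the hairpins over 20 bases and ends in TT, and it has no genome position in the table. ptc-miR393a-5p_R+4, of 25 nt, matches them over 22 bases and goes on with 3 that do not match. It also has no genome position, and its 3.33 reads in ‘Mix’ and 6.83 in ‘Ant’ did not pass the tests (log2 0.99, interval -0.95 to 3.76; Fisher's exact p = 0.213). Reads with fractions occur for 73.9% of the 157 sequences with more than 1 entry and 33.9% of the 995 with 1 entry, and how they were divided is not given in the sources used here.

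The share of 22-nt reads with the changed last base did not differ past the threshold. ath-miR393a-5p_1ss22CT made up 1.70% of its reads and those of ath-miR393a-5p together in ‘Mix’ (Wilson interval 0.971% to 3.25%) and 2.31% in ‘Ant’ (2.0% to 2.67%), an odds ratio of 1.30 with an exact interval of 0.688 to 2.78 (two-sided Fisher's exact p = 0.556). The counts, with 9.5 changed reads in ‘Mix’, are compatible with any odds ratio inside this interval. The form with both last bases changed went the other way, with 2.36% in ‘Mix’ (1.35% to 3.90%) and 1.12% in ‘Ant’ (0.908% to 1.38%) (description only, since this form was singled out after its values were seen). With both forms added the shares were 3.98% and 3.39%, and the odds ratio was 0.838 (Fisher's exact p = 0.405).

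The remaining 5p member, ath-MIR393b-p5, starts 7 nt before the guide strand and overlaps it. Its sequence is in the A07 and the A04 minus-strand hairpins, it was listed at 0 in ‘Mix’, and it had 2 reads in ‘Ant’. Both values are under the floor of 3 reads, so no fold is given.

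The 3p members went in both directions. Each hairpin has a single 3p sequence of 21 nt, so a direction by hairpin is here nearly the direction of 1 sequence. ath-miR393b-3p_1ss16TC, the 3p strand of the A07 hairpin, had 233 reads in ‘Mix’ and 2844 in ‘Ant’. Its log2 ratio was 3.56 (interval 3.37 to 3.76), and its call, too, held with the assumed variation (edgeR exact p = 0.000115). It moved from place 153 in ‘Mix’ to place 55 in ‘Ant’. bna-MIR393-p3, of 19 nt, lies inside it, starts at the same base and ends 2 nt earlier, and had 4 reads in ‘Mix’ and 17 in ‘Ant’ (log2 2.04, interval 0.43 to 4.07; Fisher's exact p = 0.00350). Its call was lost with the assumed variation (edgeR exact p = 0.0961).

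ath-miR393b-3p_1ss14TA, the 3p strand of the A04 minus-strand hairpin, had 614 reads in ‘Mix’. It had 1525 reads in ‘Ant’, a log2 ratio of 1.27 (interval 1.13 to 1.40). This ratio passed the fold by little, was no longer called with the assumed variation (edgeR exact p = 0.136), and was 0.96, under the threshold of 1, when the libraries were scaled by the median of ratios. With each sequence counted once, this 3p strand had more reads than ath-miR393a-5p in ‘Mix’ (614 against 550.5) and fewer in ‘Ant’ (1525 against 7686). The order in ‘Mix’ depends on that count, because ath-miR393a-5p has 2 entries and does not stay below when they are summed.

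The 3p strands of the other hairpins had few reads and were lower in ‘Ant’. ptc-miR393a-3p_1ss17GC, from the A04 plus-strand hairpin, had 27 reads in ‘Mix’ and 10 in ‘Ant’ (log2 -1.48, interval -2.69 to -0.39; Fisher's exact p = 0.0126). ptc-miR393a-3p_1ss18GA, from the A05 hairpin, had 15 reads in ‘Mix’ and 3 in ‘Ant’ (log2 -2.37, interval -4.80 to -0.55; Fisher's exact p = 0.00810). Neither call held with the assumed variation (edgeR exact p = 0.178 and 0.0822). ath-MIR393a-p3, which overlaps the start of the 3p strand of the A04 plus-strand hairpin, had a single read in ‘Mix’, with 0 listed for ‘Ant’.

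**Figure D3:**
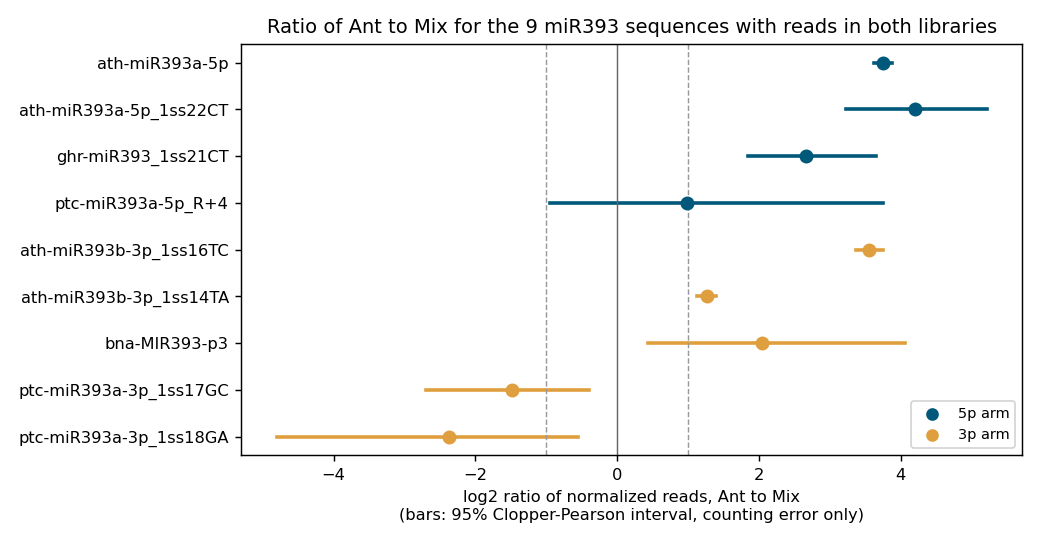
Log2 ratio of ‘Ant’ to ‘Mix’ for the 9 sequences with reads in both libraries, with bars for the Clopper-Pearson interval at 95% and dashed lines at the fold threshold. The 5p sequences lie between 0.99 and 4.21. The 3p sequences run from -2.37 for the A05 form to 3.56 for the A07 form, and their bars do not overlap between the sequences above 0 and those below it.

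Within each library, the 3p reads of the 4 hairpins were set against each other, a comparison that does not depend on the scaling of the libraries. The A04 minus-strand hairpin held 68.7% of the 894 reads of 3p in ‘Mix’ (Wilson interval 65.6% to 71.6%) and 34.7% of the 4399 in ‘Ant’ (33.3% to 36.1%). The A07 hairpin held 26.5% in ‘Mix’ (23.7% to 29.5%) and 65.0% in ‘Ant’ (63.6% to 66.4%). The order of these 2 hairpins was thus exchanged between the libraries. A07 had 0.386 reads of 3p for each read of the A04 minus-strand hairpin in ‘Mix’ and 1.88 in ‘Ant’, a pair set side by side after its values were seen and given with no test. Each hairpin against the other 3 gave an odds ratio of 5.16 for A07 (interval 4.38 to 6.08; Fisher's exact p = 5.04e-100), 0.242 for the A04 minus strand (0.207 to 0.283; p = 3.53e-78), 0.0705 for the A04 plus strand (0.0304 to 0.150; p = 1.85e-14) and 0.0400 for A05 (0.00741 to 0.142; p = 1.15e-09), with p adjusted over the 4 hairpins by Benjamini-Hochberg. These shares of 3p reads depend on one another, since they sum to the whole.

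**Figure D4:**
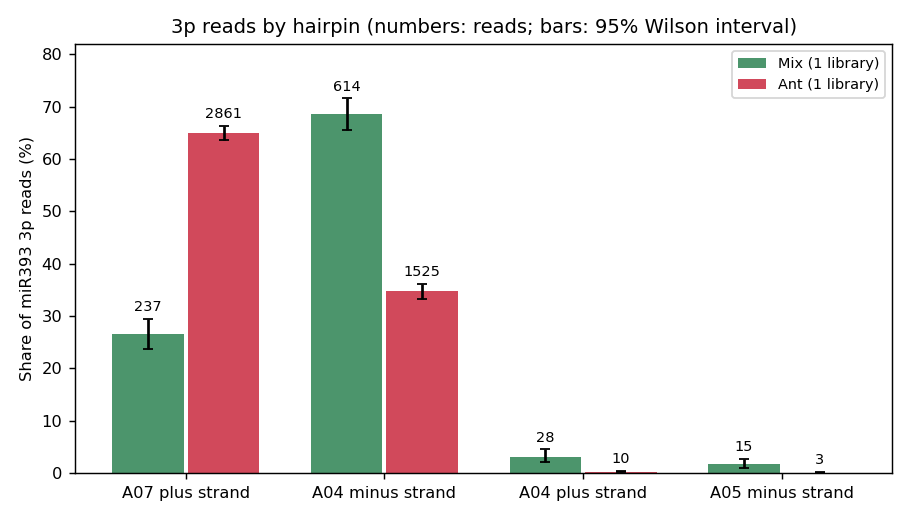
Share of the miR393 3p reads of each library that lies on each hairpin, in percent, with Wilson intervals at 95% and the number of reads above each bar. The A04 minus-strand hairpin leads in ‘Mix’ with 68.7% and the A07 hairpin in ‘Ant’ with 65.0%. The other 2 hairpins stay under 4% in both.

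The hairpins also divide by the base at position 8 of their 3p strand. The A07 and A04 minus-strand hairpins have G there, as ath-miR393b-3p does, and the other 2 have T, as ptc-miR393a-3p does. Over the first 2 hairpins, 851 reads of 3p in ‘Mix’ and 4386 in ‘Ant’ were found, a log2 ratio of 2.32 (interval 2.21 to 2.43). Over the other 2, 43 reads in ‘Mix’ and 13 in ‘Ant’ were found, a log2 ratio of -1.77 (interval -2.79 to -0.85). The ratio of the first to the second kind was 19.8 in ‘Mix’ and 337 in ‘Ant’. This grouping was likewise made after the values were seen and carries no test.

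The balance of the arms differed between the libraries. In ‘Mix’, 576.66 reads of 5p stood beside 894 of 3p, 0.645 of 5p for each of 3p, and in ‘Ant’ 7964.16 beside 4399, or 1.81 for each. The odds ratio was 2.80 (exact interval 2.51 to 3.14; two-sided Fisher's exact p = 3.40e-76). It was 4.54 without the most read sequence of each arm, and 2.17 (Fisher's exact p = 6.17e-05) without the sequences that lie inside a longer member, which leaves out ath-miR393a-5p and bna-MIR393-p3. The ratio within a library depends on how the reads of a sequence with 2 entries are read. When every entry was summed, ‘Mix’ had 1.28 and ‘Ant’ 3.60 reads of 5p for each of 3p, so the statement that 3p reads were the majority in ‘Mix’ does not hold under that reading, while the difference between the libraries does. The most read 5p sequence matches all 4 hairpins, and its reads cannot be assigned to any of them, while most 3p reads lie on 2. With 100 normalized reads or more on each arm in both libraries, 37 families could be set side by side. Both arms were more than 2-fold higher in ‘Ant’ in 7 of them (miR156, miR167, miR393, miR397, miR5718, miR9554 and miR9569), and miR393 was at place 3 by its 5p ratio and place 5 by its 3p ratio among the 37. Its 5p ratio exceeded its 3p ratio by 1.49 on the log2 scale, and 12 of the 37 families had a larger gap between the arms in either direction.

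**Figure D5:**
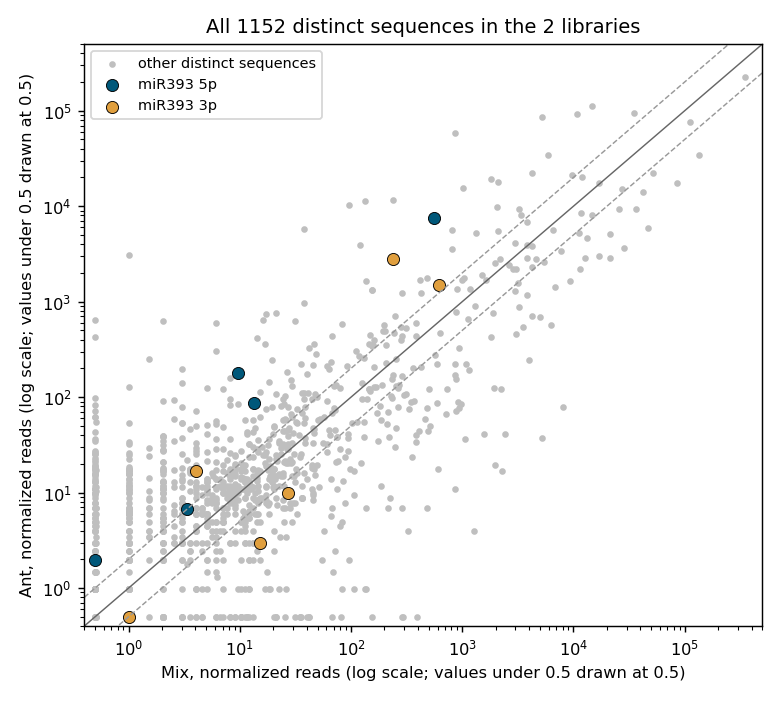
Normalized reads of all 1152 distinct sequences in ‘Mix’ (horizontal) and ‘Ant’ (vertical), both on log scales, with 2-fold changes as dashed lines. The miR393 5p sequences (blue) lie above the diagonal, and those of 3p (amber) lie on both sides. Several sequences of other families lie further from the diagonal than ath-miR393a-5p.

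Of the sequences with 100 normalized reads or more in both libraries, 145 in all, ath-miR393a-5p was at place 7 by its ratio of ‘Ant’ to ‘Mix’ and ath-miR393b-3p_1ss16TC at place 9. The 3 sequences of other families with the ratios nearest to that of ath-miR393a-5p, over 142 candidates and these 2 libraries, were gma-miR167a_R+2, bra-miR5724 and bna-miR397a. gma-miR167a_R+2, of 23 nt, had 133.83 reads in ‘Mix’ and 1658.33 in ‘Ant’ (log2 3.59, interval 3.33 to 3.85). bra-miR5724 had 1009 reads in ‘Mix’ and 15929 in ‘Ant’ (log2 3.93, interval 3.84 to 4.03). bna-miR397a, a 22-nt sequence of a family that acts on laccase mRNAs in Arabidopsis, had 5173 reads in ‘Mix’ and 88328 in ‘Ant’ (log2 4.05, interval 4.01 to 4.09). With 2 libraries, a like ratio says only that both values moved by a like factor.

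Other miRNAs of the auxin pathway did not move as 1 group. In Arabidopsis, miR160 and miR167 act on mRNAs of auxin response factors, miR390 on the TAS3 transcript and miR164 on NAC1. These families had 43 sequences in the table, with both arms and length variants counted, not the guide strands alone. Of these, 7 were called higher in ‘Ant’ (16.3%, beside 27.3% of all sequences) and 22 lower (51.2%, beside 19.3% of all). miR847, which acts on IAA28 there, was not analysed here. All 9 of miR160 summed to 8352.62 normalized reads in ‘Mix’ and 1039.55 in ‘Ant’, with 7 called lower and 0 higher. Its most read sequence, bna-miR160a, had 4911.58 reads in ‘Mix’ and 697.67 in ‘Ant’ (log2 -2.86, interval -2.98 to -2.75). miR164 had 7 of 9 sequences called lower and 1 higher, and bra-miR164a had 12987.7 reads in ‘Mix’ and 4679.4 in ‘Ant’ (log2 -1.52, interval -1.57 to -1.47). For miR167, 6 of 17 were called higher and 6 lower. Its most read sequence, bra-miR167a, had 14480.5 reads in ‘Mix’ and 114470 in ‘Ant’ (log2 2.94, interval 2.91 to 2.96). For miR390, 2 of 8 were called lower and 0 higher, and aly-miR390a-5p had 4146.5 reads in ‘Mix’ and 2364 in ‘Ant’ (log2 -0.86, interval -0.93 to -0.78), which was under the fold. The family totals of miR393 and miR167 (log2 3.03 and 2.47) were thus above 0, and those of miR160, miR164 and miR390 (-3.01, -1.75 and -0.56) below it, in the same pair of libraries. Differences between families were not tested.

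Among other Arabidopsis families with a 22-nt form that starts secondary siRNAs, miR173 and miR472 were not analysed here. miR828, which acts on MYB mRNAs, had 2 sequences, both called higher, beside 27.3% of all sequences, and both had at most 2 reads in ‘Mix’. Of these, ath-miR828 had 2 reads in ‘Mix’ and 39 in ‘Ant’ (log2 4.24, interval 2.29 to 7.34). The mRNAs of the auxin receptors, and siRNAs from them, were not analysed here.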

How the data were processed

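Small RNA libraries of ‘Ant’ and ‘Mix’, 1 each, were prepared with a TruSeq small RNA kit and sequenced on an Illumina HiSeq instrument. miRNAs were identified by the authors against miRBase 21.0 and the genome, from inserts of 18 to 25 nt left once adapter, simple and structural RNA reads had been filtered out. The deposited reads are estimated counts, some with fractions. The notes of the table call them the reads of the isoform at the 5′ or 3′ end, and whether length variants are summed is not stated. The deposited normalized signal is the reads times 1 factor per library. The authors also deposited the GC percent of each precursor, its folding energy and a score of energy by length and GC. Amounts of input RNA differ between the labels and the methods.

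Sequences were taken once each, by the first entry. The calls by chi-square and Fisher's exact test used normalized reads, and the other tests used reads, in each case rounded to whole numbers. Members and lists were chosen with earlier results of these data known. Named sequences were all members, the 3 nearest by ratio, and the most read of each listed family. Windows were aligned globally (biopython 1.88), and duplexes were read from the deposited folds. Python 3.11.15, numpy 2.4.6, pandas 2.3.3, scipy 1.17.1, matplotlib 3.10.9, R 4.3.3 and edgeR 4.0.16 were used. Alternatives were scalings, a pseudocount of 1, read minimums, entries in place of sequences, other tests and a log2 threshold of 2. The reference gene table was not used here.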

Additional observations from a re-analysis of the deposited data

How the results depend on the processing

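No paired analysis was possible because each group has 1 library. The directions of the family, 5p and 3p totals held under every alternative run. The log2 ratio of the family total (3.03) was 3.12 with scaling by total reads, 2.81 with TMM factors, 2.72 with the median of ratios, 3.27 with every name summed and 1.37 without the most read sequence of each arm. The 5p total (3.74) was 3.53 with TMM factors, 3.44 with the median of ratios and 3.36 without its most read sequence. The 3p total (2.25) was 2.04, 1.95 and 1.19 under the same settings. TMM factors and the median of ratios shifted all log2 ratios by -0.21 and -0.30. Of the sequences, ath-miR393b-3p_1ss14TA alone changed its call under the scalings and the pseudocount, with 0.96 under the median of ratios. The odds ratios of arms and hairpins kept their direction and stayed past the threshold, with 2.17 to 4.54 for the arms (2.80). The odds ratio of the share changed at position 22 (1.30) turned to 0.838 when the form with no genome position was added, and neither was past the threshold. The 8 calls among 11 sequences became 4 with the edgeR exact test at the assumed coefficient of variation, and 5 when 10 reads were required in both libraries, which left 5 sequences. All calls (536 of 1152) became 340 of 1152 with the edgeR exact test. With 10 reads required in both libraries they became 228 of the 422 sequences left (25.8% called higher and 28.2% lower). Depth limits the 3 sequences under 10 reads and the 3p strands of the A04 plus-strand and A05 hairpins, and no value has replicate error.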
